A study of Mus musculus with 10 samples.

Results

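The genes Hoxb1 to Hoxb9 of the mouse Hoxb cluster were followed in cultured blood stem and progenitor cells to which a retrovirus had added HOXB4. They were found as the Affymetrix mouse array probe sets whose annotated symbol is one of these 9 genes, of 18193 genes with a probe set of their own. There were 11 such probe sets among the 45037 tested. Of these, 10 carried a single symbol and covered 8 genes, with a pair each for Hoxb3 and Hoxb4. The remaining probe set, 1452493_s_at, was annotated to both Hoxb8 and Hoxb7 and is given by its number, since a separate Hoxb8 probe set was not among those analysed here.

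Each of 5 groups had 2 arrays. HOXB4-ER cells without TMX were taken after 1 h and, as a second group, after 4 h, and HOXB4-ER cells with 10 nM TMX after 1 h. HOXB4const cells without TMX and HOXB4const cells with 10 nM TMX were both taken after 1 h. HOXB4-ER is HOXB4 fused to an oestrogen receptor domain, which 4-hydroxytamoxifen (TMX) moves into the nucleus, and HOXB4const is taken here, from its name, as the form that does not depend on TMX. All 5 groups shared the same history: retroviral transduction, 14 days of growth with cytokines and 10 nM TMX in medium free of serum, a sort for GFP-positive, lineage-negative, Sca1-positive, c-kit-positive (LSK) cells, and 12 h more with TMX. Every group therefore carried a HOXB4 transgene that had been active, and cells without one were not analysed here, nor were cells at 4 h with TMX. The labels call the arrays of a group biological replicates and do not say whether they came from separate animals, so the p-values measure the spread between these arrays.

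Hox genes encode homeodomain transcription factors that lie side by side in the Hoxa, Hoxb, Hoxc and Hoxd clusters. In the embryo they are switched on in their order along the chromosome, and neighbours tend to be active together. In blood, Hox genes are most active in stem and early progenitor cells and are turned down as the cells differentiate, and extra HOXB4 is known to expand blood stem cells in culture. HOX proteins bind DNA with cofactors of the TALE class (PBX, MEIS and PKNOX proteins), and the enzymes that keep Hox clusters active (KMT2A with its partners) are opposed by Polycomb proteins.

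RefSeq promoter sequence (GRCm38.p6) was at hand for 3 of the members, Hoxb1, Hoxb4 and Hoxb8. The stretch of 250 bases before the start of Hoxb4 is shown because it belongs to the cell's own copy of the gene that the retrovirus supplied. The same stretch of Hoxb1 is shown because the Hoxb1 gene is a textbook case of a Hox gene that HOX and PBX proteins regulate through a composite site, and capitals mark its match to the PBX and HOX motif TGATNNAT, which starts at position -162. Both lie on the plus strand of chromosome 11, Hoxb4 at chr11:96318017-96318266 and Hoxb1 at chr11:96365508-96365757.
Hoxb4: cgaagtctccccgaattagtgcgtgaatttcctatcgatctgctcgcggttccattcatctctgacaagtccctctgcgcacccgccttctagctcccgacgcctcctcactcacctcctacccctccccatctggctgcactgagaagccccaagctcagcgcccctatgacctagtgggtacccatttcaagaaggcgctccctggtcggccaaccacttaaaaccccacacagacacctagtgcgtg
Hoxb1: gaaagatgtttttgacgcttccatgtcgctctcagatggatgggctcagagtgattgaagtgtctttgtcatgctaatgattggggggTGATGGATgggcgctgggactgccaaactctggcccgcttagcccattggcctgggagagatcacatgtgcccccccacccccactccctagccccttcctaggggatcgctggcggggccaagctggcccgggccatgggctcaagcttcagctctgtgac
Windows from 250 bases before to 50 bases after each start were searched on both strands, with no overlap between the motifs found in Hoxb1. TGATNNAT was present in 8.85% of 32851 mouse promoters. The Hoxb1 window held 1 match, the Hoxb8 window 1 and the Hoxb4 window 0. CCAAT, the box bound by NF-Y, was present in 37.4% of promoters, with 2 matches in the Hoxb1 window, 1 in the Hoxb8 window and 0 in the Hoxb4 window. CACGTG, the E-box bound by USF, and TAATTA, a homeodomain core, had 0 matches in the 3 windows and were present in 7.15% and 5.29% of promoters. The E-box and NF-Y motifs were chosen because USF and NF-Y proteins are known regulators of HOXB4 in blood cells. A match describes these letters and is not a measured site, and a window without one says nothing about the factor.

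Signals are given as deposited, on the log2 scale. The median signal of an array lay between 3.96 and 5.32, and between 3.96 and 4.71 without the HOXB4const without TMX replicate 1 array, which stood apart at 5.32. Detection calls were not used here. As a gauge of genes that blood cells do not use, the 95th percentile of 81 probe sets for odour, pheromone and trace amine receptors was taken on each array. It lay between 4.39 and 6.23. The labelled cell type was checked against its markers: Kit, Cd34, Gata2, Ptprc and Cd48 were above the gauge on 10 of 10 arrays, Flt3 on 9 and Slamf1 on 4, while Ly6a, which encodes Sca1, was not analysed here. Of the lineage markers measured, Cd3e, Cd79a and Hba-a1 were above the gauge on 0 arrays. The myeloid genes Mpo, Csf1r and Cd14 were above it on 10 of 10, Elane on 8 and Itgam, which encodes the gate antigen CD11b, on 5. This list holds lineage genes in general and not only antigens of the gate. Of the mast cell and megakaryocyte lists, Cpa3, Mcpt8, Ms4a2, Pf4 and Itga2b were above the gauge on 10 of 10 arrays, and Fcer1a and Gp1bb on 7. Mcpt8, which stands in the mast cell list, is a basophil gene. In such bulk samples, fewer expressing cells and less RNA per cell cannot be told apart.

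Most of the Hoxb cluster lay in the range of the receptor genes. Of the 10 single-gene probe sets, 7 were at or below the gauge on every array, against 45.2% of all probe sets. Of their 100 values 12 were above it, where 37.6% of all values were, and 9 of the 12 belonged to the brighter Hoxb4 probe set. The other 9 probe sets gave 3 of 90 values above the gauge. The array median was passed by 29 of the 100 values. Means over the 10 arrays were between 1.92 and 5.67, and 8 of the 10 lay below 4.05, the median of the means of all probe sets. The signals also scattered. The mean SD within groups was between 0.54 and 2.09 for the 10 probe sets, and 8 of them spanned a range of more than 3 on the log2 scale over the arrays. Sizes of differences between such dim values are not measured sizes.

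**Figure D1:**
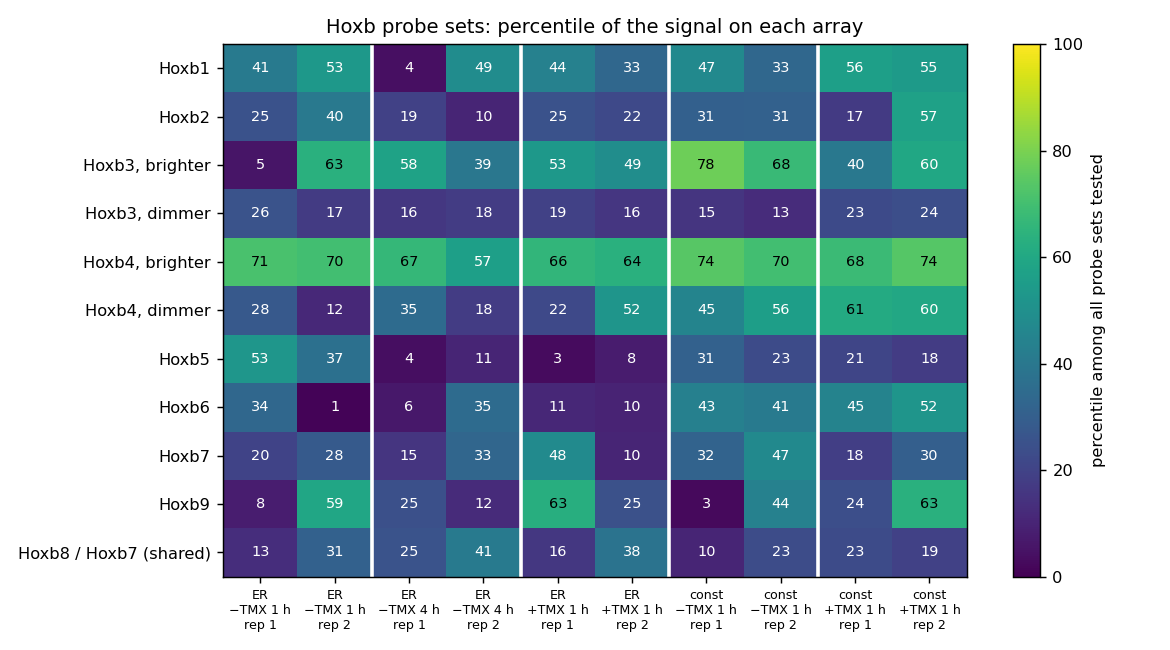
Percentile of each Hoxb probe set (rows) among the 45037 probe sets of each array (columns, by group and replicate number), from low (dark) to high (light); ER is HOXB4-ER, const is HOXB4const, and minus or plus TMX is without or with TMX. The brighter Hoxb4 row stays between 56.5 and 73.9 on all arrays, while the Hoxb5 and Hoxb6 rows reach down to 2.86 and 1.07.

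Hoxb4, the gene whose product the retrovirus supplied, was read by a brighter and a dimmer probe set. The files do not show whether either can read the retroviral transcript as well as the cell's own. The brighter one, 1460379_at, was above the array median on 10 of 10 arrays and above the gauge on 9 of 10. On replicates 1 and 2 it read 6.12 and 5.78 in HOXB4-ER cells without TMX at 1 h, 5.62 and 4.37 without TMX at 4 h, and 5.51 and 4.95 with TMX. In HOXB4const cells it read 6.59 and 5.69 without TMX and 5.83 and 6.24 with TMX. The lowest value, in replicate 2 of HOXB4-ER without TMX at 4 h, was the one at or below the gauge. Relative to the median of its own array the probe set stood 0.41 to 1.52 higher, at percentiles 56.5 to 73.9.

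The group means of the brighter Hoxb4 probe set were 5.95 ± 0.24 for HOXB4-ER without TMX at 1 h, 4.99 ± 0.88 for HOXB4-ER without TMX at 4 h, 5.23 ± 0.39 for HOXB4-ER with TMX, 6.14 ± 0.63 for HOXB4const without TMX and 6.04 ± 0.29 for HOXB4const with TMX (SD, n = 2 each). Ordered by level, the lowest was HOXB4-ER without TMX at 4 h, then HOXB4-ER with TMX, HOXB4-ER without TMX at 1 h, HOXB4const with TMX and HOXB4const without TMX. The comparisons fitted between neighbours in that order, all but HOXB4-ER without TMX at 1 h against HOXB4const with TMX, did not pass the threshold. The HOXB4-ER groups at 1 h together read 5.59 ± 0.49 and the HOXB4const groups 6.09 ± 0.41 (SD, n = 4 each), a difference of -0.50 ± 0.42 (SE, 95% interval -1.48 to 0.49, limma adjusted p = 0.884).

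The dimmer Hoxb4 probe set, 1451761_at, was lower as deposited on every HOXB4-ER array than on any HOXB4const array, a separation that was lost relative to the array medians. In HOXB4-ER cells its replicates 1 and 2 read 2.93 and 1.10 without TMX at 1 h, 3.39 and 1.10 without TMX at 4 h, and 2.22 and 4.08 with TMX. In HOXB4const cells they read 5.05 and 4.77 without TMX and 5.19 and 5.21 with TMX. The 6 HOXB4-ER values spread over a wide range and the 4 HOXB4const values lay close together, 1 of them above the gauge. Relative to the median of its own array, the probe set stood at 0.12 (percentile 52.1) on replicate 2 of HOXB4-ER with TMX and at -0.28 (percentile 45.1) on replicate 1 of HOXB4const without TMX, the array with the outlying median. Over the 10 arrays the pair of Hoxb4 probe sets had a Pearson r of 0.549 and a Spearman rho of 0.564, which describes arrays that share their overall brightness.

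**Figure D2:**
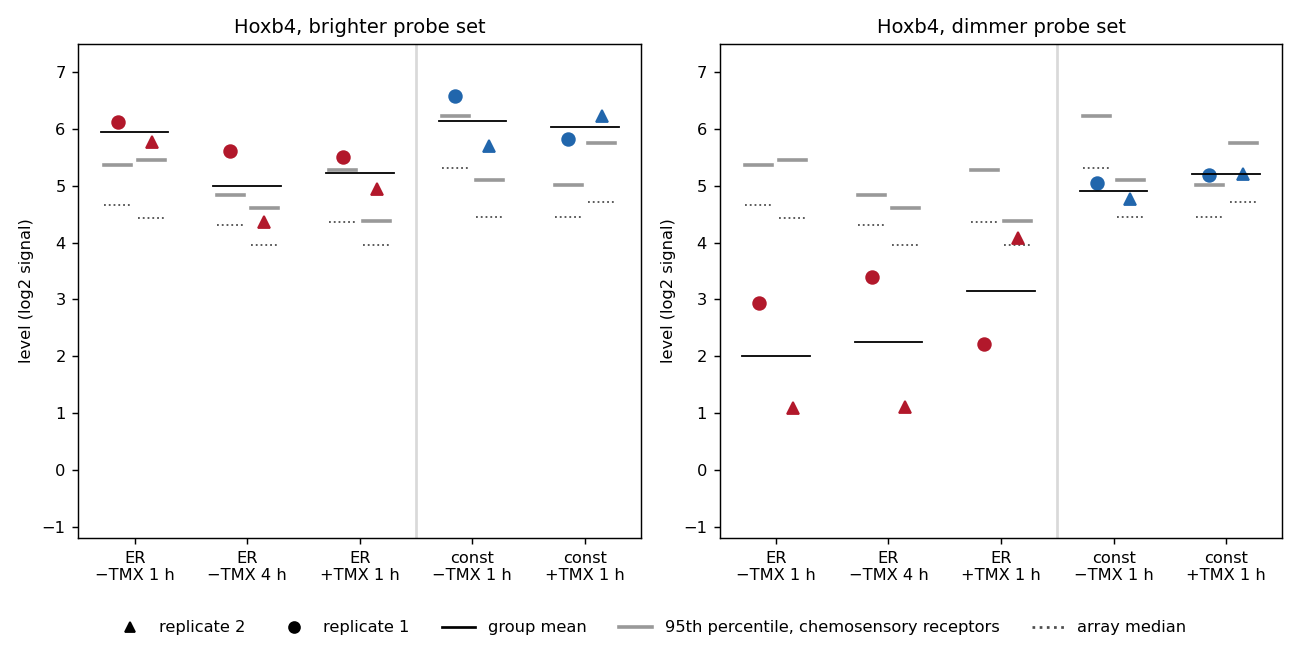
Level of the brighter (left) and dimmer (right) Hoxb4 probe set on each array, as log2 signal, by group (ER, HOXB4-ER; const, HOXB4const), with group means as black lines, the 95th percentile of the receptor genes in grey and the array median dotted. On the right, the HOXB4-ER arrays lie between 1.10 and 4.08 and the HOXB4const arrays between 4.77 and 5.21.

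Between the constructs at 1 h, 0 of 10 single-gene Hoxb probe sets had a difference above 0 (HOXB4-ER minus HOXB4const), where 37.9% of all probe sets did. All 10 lay below 0, 8 of 10 after quantile normalization and 9 of 10 with array medians centred. Their median difference was -0.72, against -0.17 over all probe sets, and quantile normalization and median centring moved the median over all to 0.01 and 0.20. Limma passed 0 of the 10 at an adjusted p under 0.05, and 0 of the 45037 (0%). At an unadjusted p under 0.05 there were 2 Hoxb probe sets, both lower in HOXB4-ER, against 7.52% of all probe sets in either direction. They were the dimmer Hoxb4 probe set and Hoxb6.

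The dimmer Hoxb4 probe set averaged 2.58 ± 1.25 in HOXB4-ER and 5.06 ± 0.20 in HOXB4const cells (SD, n = 4 each), a difference of -2.47 ± 0.70 (SE, 95% interval -4.13 to -0.82, limma adjusted p = 0.490). Hoxb6, whose overexpression expands immature myeloid cells in mice, read 3.61 and -0.58 without TMX at 1 h, 0.21 and 3.004 without TMX at 4 h, and 0.94 and 0.38 with TMX in HOXB4-ER cells, on replicates 1 and 2. In HOXB4const cells it read 4.95 and 3.98 without TMX and 4.17 and 4.82 with TMX. Hoxb6 was thus lower on 6 of 6 HOXB4-ER arrays than on any HOXB4const array, but it was above the gauge on 0 arrays of either construct. At 1 h it averaged 1.09 ± 1.80 in HOXB4-ER and 4.48 ± 0.48 in HOXB4const cells (SD, n = 4 each), a difference of -3.39 ± 1.01 (SE, 95% interval -5.76 to -1.03, limma adjusted p = 0.499).

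Values below the 25th percentile of an array were also raised to that percentile. The Hoxb6 difference then came to -1.75, and the dimmer Hoxb4 probe set had -2.02. Leaving out 1 array at a time gave -4.44 to -2.34 for Hoxb6 and -2.94 to -2.01 for the dimmer Hoxb4 probe set. Without overlap between the 4 HOXB4-ER and 4 HOXB4const arrays at 1 h, 2 of 10 Hoxb probe sets were lower and 0 were higher, where 3.26% and 0.928% of all probe sets were. Relative to the array medians Hoxb6 kept its separation, with -5.01 to -1.06 on HOXB4-ER arrays at 1 h and -0.48 to 0.11 on HOXB4const arrays, while the dimmer Hoxb4 probe set overlapped. The other 8 overlapped between the constructs, Hoxb3 among them with -1.85 ± 1.04 (SE) for its brighter probe set, or -0.66 without replicate 1 of HOXB4-ER without TMX and -3.04 without replicate 2.

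Other measures moved between the constructs as well, and their part in these results was not tested. The summed linear signal of the 4 genes of the mast cell list was 5240 to 6558 on the HOXB4-ER arrays at 1 h and 7161 to 9306 on the HOXB4const arrays, without overlap. Of these 4 genes, 3 had a difference (HOXB4-ER minus HOXB4const) below 0 and 1 above, with a median of -0.46. The summed signal of the 8 lineage markers measured, of 11, was 5521 to 13639 in HOXB4-ER and 2047 to 4888 in HOXB4const cells, also without overlap. By number the lineage markers ran mostly the other way: 6 of the 8 had a difference (HOXB4-ER minus HOXB4const) below 0 and 2 above, with a median of -0.30, against -0.17 over all probe sets. The bright granule gene Mpo was among the 2, at 1.82 ± 0.35 (SE, limma adjusted p = 0.339). The 3 megakaryocyte markers summed to 1204 to 4040 in HOXB4-ER and 3727 to 6903 in HOXB4const cells, and the 7 LSK and progenitor markers measured, of 9, to 8881 to 10563 and 7877 to 10031 in the same order. Array medians at 1 h were 3.96 to 4.67 for HOXB4-ER and 4.45 to 5.32 for HOXB4const. The 3′ control of Gapdh exceeded its 5′ control, and a larger excess is a sign of less intact RNA. The excess was 1.01 to 1.74 on the HOXB4-ER arrays at 1 h and 0.74 to 3.98 on the HOXB4const arrays. On the HOXB4-ER arrays at 4 h it was 1.42 for replicate 1 and 3.47 for replicate 2.

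HOXB4-ER cells after 1 h without TMX were set against HOXB4-ER cells kept with TMX. Where the fusion protein was in the cells after 1 h was not measured in these data. Limma passed 0 of 10 Hoxb probe sets and 0 of 45037 overall (0%) at an adjusted p under 0.05. At an unadjusted p under 0.05 there was 1 Hoxb probe set, Hoxb5, among 4.76% of all probe sets. The Hoxb differences (without minus with TMX) had a median of 0.70, against 0.12 over all probe sets, and 7 of 10 were above 0, where 57.7% of all were, or 6 of 10 after quantile normalization or median centring. The arrays without TMX were all above those with TMX for 3 of 10, namely Hoxb1, the brighter Hoxb4 probe set and Hoxb5, where 21.1% of all probe sets were. For 0 of 10 they lay below, against 11% of all probe sets. The array medians were also higher without TMX, 4.67 and 4.43 against 4.37 and 3.96. Relative to them Hoxb1 overlapped, with -0.50 and 0.18 without TMX and -0.33 and -1.03 with TMX.

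Hoxb5, which marks long-term repopulating stem cells in mouse bone marrow, read 4.82 and 3.67 in HOXB4-ER cells without TMX at 1 h (replicates 1 and 2). It read -0.23 and 0.31 without TMX at 4 h, and -0.21 and 0.13 with TMX. In HOXB4const cells it read 4.01 and 2.34 without TMX and 2.10 and 2.25 with TMX. The 1 h withdrawal arrays were thus the highest of the HOXB4-ER arrays, and the 4 h arrays lay with those kept in TMX. On none of the 10 arrays was Hoxb5 above the gauge, and 1 value, that of replicate 1 without TMX at 1 h, was above its array median. The dim HOXB4-ER values stood at percentiles 2.86 to 10.5.

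The Hoxb5 difference at 1 h was 4.29 ± 0.68 (SE, 95% interval 2.69 to 5.88), with a limma adjusted p of 0.496 and the 31st smallest p of all probe sets. With values below the 25th percentile raised to it, the difference was 1.87, and its adjusted p ranged between 0.392 and 1.00 over the alternatives. Leaving out 1 array at a time gave 3.71 to 4.86. The brighter Hoxb4 probe set differed by 0.72 ± 0.59 and the dimmer one by -1.14 ± 0.99 (SE), opposite in sign. Hoxb1 differed by 0.91 ± 1.25, Hoxb2 by 1.04 ± 1.15 and Hoxb6 by 0.85 ± 1.42 (SE). Single arrays set these values: for Hoxb6 the difference was -1.25 without replicate 1 and 2.95 without replicate 2 of HOXB4-ER without TMX, for Hoxb2 it was 1.70 and 0.37 without the same arrays, and for Hoxb1 it was 1.46 and 0.35 without replicates 1 and 2 with TMX. The brighter Hoxb3 probe set gave -1.38 ± 1.47 (SE), and 1.00 without replicate 1 of HOXB4-ER without TMX, an array on which it read 0.46 against 5.22 on replicate 2.

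**Figure D3:**
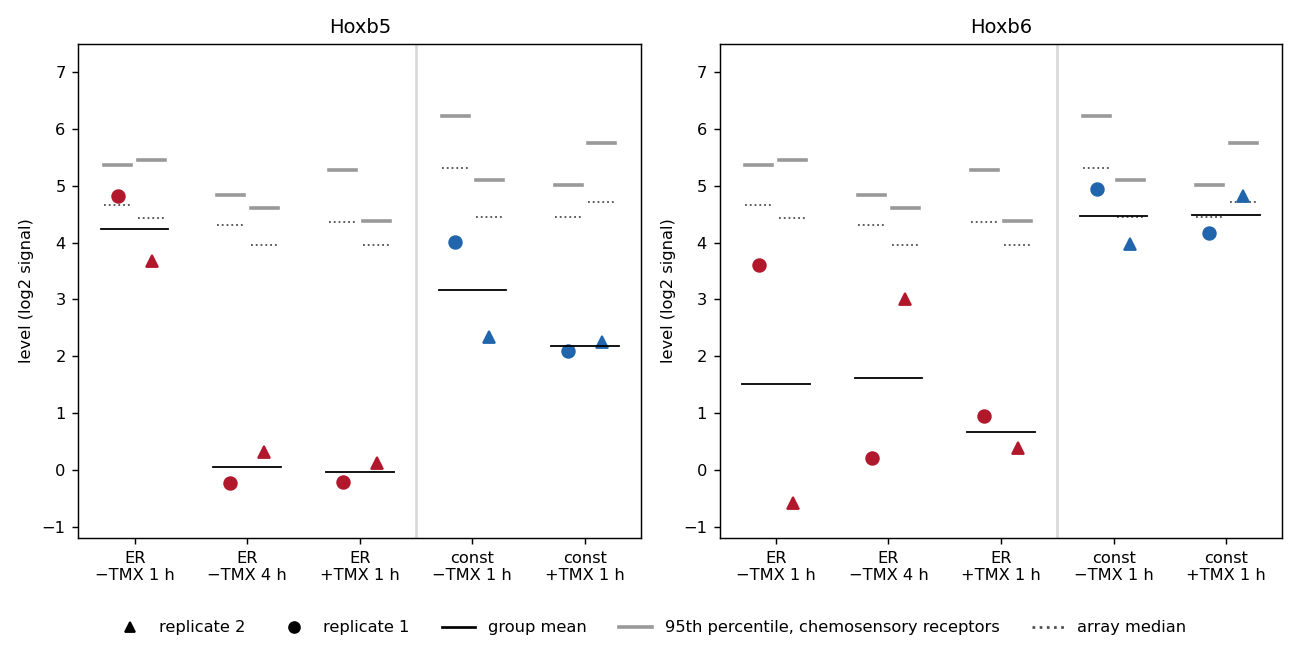
Level of Hoxb5 (left) and Hoxb6 (right) on each array, as log2 signal, by group (ER, HOXB4-ER; const, HOXB4const), with group means as black lines, the 95th percentile of the receptor genes in grey and the array median dotted. Hoxb5 stands at 4.82 and 3.67 in HOXB4-ER cells without TMX at 1 h, against -0.21 and 0.13 with TMX, and no point of either gene reaches the grey line of its array.

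HOXB4-ER cells after 4 h without TMX were set against the cells with TMX at 1 h, the one group with TMX available for HOXB4-ER. Withdrawal and time in culture cannot be told apart in this comparison. Limma passed 0 of 10 Hoxb probe sets and 0% of all at an adjusted p under 0.05, and 0 of 10 against 3.35% of all at an unadjusted p under 0.05. The median difference was -0.25 for Hoxb and -0.02 over all probe sets, with 2 of 10 above 0, as after quantile normalization and median centring, where 48.3% of all were. Hoxb5 differed by 0.08 ± 0.68 and the brighter Hoxb4 probe set by -0.24 ± 0.59 (SE). Hoxb2, which patterns the hindbrain in the embryo, was the one of 10 whose 4 h arrays, at 1.78 and 0.28, lay below those with TMX, at 2.59 and 1.80, where 15.2% of all probe sets did, and 0 of 10 lay above, where 14.8% did. Its difference was -1.17 ± 1.15 (SE), or -0.42 without replicate 2 at 4 h and -1.91 without replicate 1. Hoxb9, a gene of trunk and limb patterning, differed by -2.20 ± 1.78 (SE) with overlapping arrays, and by -0.68 to -3.73 without one or the other array with TMX.

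Between 4 h and 1 h without TMX, Hoxb5 again stood apart, on the same 1 h arrays as above. Its difference (4 h minus 1 h) was -4.20 ± 0.68 (SE, limma adjusted p = 0.348), -2.02 with dim values raised to the 25th percentile. Limma passed 0 of 10 Hoxb probe sets and 0% of all at an adjusted p under 0.05, and 1 of 10, Hoxb5, against 5.68% of all at an unadjusted p under 0.05. For 5 of 10 Hoxb probe sets the 4 h arrays lay below the 1 h arrays, where 23.4% of all probe sets did: Hoxb1, Hoxb2, the dimmer Hoxb3 probe set, the brighter Hoxb4 probe set and Hoxb5. The differences were -2.52 ± 1.25 for Hoxb1, -2.20 ± 1.15 for Hoxb2, -0.91 ± 0.67 for that Hoxb3 probe set and -0.96 ± 0.59 for that Hoxb4 probe set (SE). For 0 of 10 they lay above, where 12.8% did. The array medians were also lower at 4 h, 4.31 and 3.96 against 4.67 and 4.43 at 1 h. Relative to them Hoxb1 overlapped, with -4.45 and -0.09 at 4 h and -0.50 and 0.18 at 1 h. The median over the Hoxb probe sets was -0.93, against -0.17 over all, with 3 of 10 above 0, where 41.7% of all were. After quantile normalization and median centring 3 of 10 were again above 0, and the median over all moved to 0.01 and 0.25. Hoxb1 read -0.14 and 3.87 at 4 h and 4.17 and 4.60 at 1 h, so that its difference rested mainly on replicate 1 at 4 h, without which it was -0.52, against -4.53 without replicate 2.

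HOXB4const cells gave the same comparison without the TMX-dependent fusion. Limma passed 0 of 10 Hoxb probe sets and 0% of all at an adjusted p under 0.05 for 1 h without minus with TMX, and 0 of 10 against 4.34% of all at an unadjusted p under 0.05. The median difference was 0.04 for Hoxb and 0.09 over all probe sets, with 5 of 10 above 0, where 55.7% of all were. With array medians centred, 3 of 10 were above 0. The brighter Hoxb3 probe set, Hoxb5 and Hoxb7 were higher without TMX on both arrays, 3 of 10 where 15.8% of all probe sets were, and the dimmer Hoxb4 probe set was lower, 1 of 10 against 9.17%. Hoxb5 differed by 1.00 ± 0.68, the brighter Hoxb4 probe set by 0.11 ± 0.59, Hoxb7 by 1.57 ± 1.24 and the brighter Hoxb3 probe set by 1.69 ± 1.47 (SE). The group without TMX holds the array with the highest median, and without it Hoxb5 differed by 0.16 and the brighter Hoxb3 probe set by 0.98. Hoxb7 differed by 0.76 without replicate 1 with TMX and by 2.38 without replicate 2.

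The response of the constructs to withdrawal at 1 h was compared directly. For Hoxb5, the HOXB4-ER response of 4.29 exceeded the HOXB4const response of 1.00 by 3.29 ± 0.96 (SE, 95% interval 1.03 to 5.54, limma adjusted p = 1.00), or by 1.34 with dim values raised to the 25th percentile. Limma passed 0 of 10 Hoxb probe sets and 0% of all at an adjusted p under 0.05, and 1 of 10 against 3.77% of all at an unadjusted p under 0.05. The response was higher in HOXB4-ER for 7 of 10, where it was for 50.9% of all. For the brighter Hoxb4 probe set the responses differed by 0.61 ± 0.84 (SE, 95% interval -1.35 to 2.58). For the brighter Hoxb3 probe set, the response was -1.38 in HOXB4-ER and 1.69 in HOXB4const cells, a difference of -3.07 ± 2.08 (SE), and -0.69 without replicate 1 of HOXB4-ER without TMX at 1 h, or -5.45 without replicate 2.

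**Figure D4:**
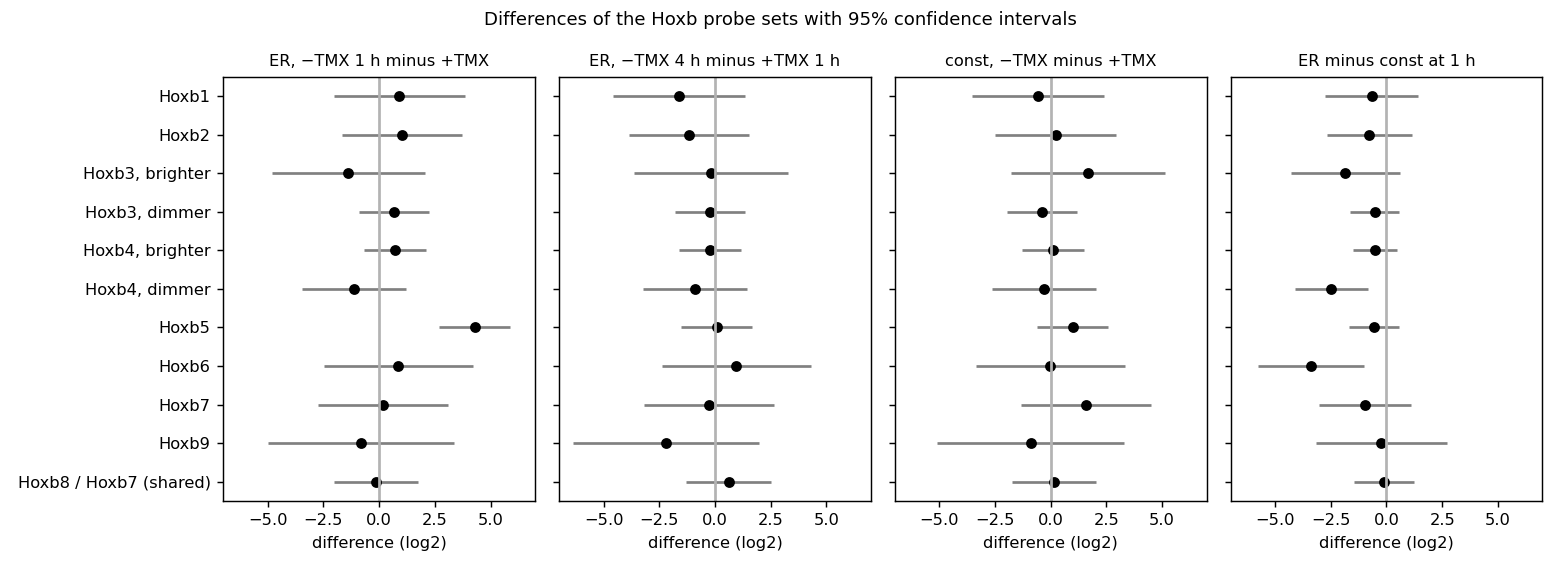
Difference of each Hoxb probe set (rows) on the log2 scale, as points with 95% confidence intervals from limma, in 4 comparisons: HOXB4-ER without TMX at 1 h minus with TMX, HOXB4-ER without TMX at 4 h minus with TMX at 1 h, HOXB4const without minus with TMX, and HOXB4-ER minus HOXB4const at 1 h. Hoxb5 in the first panel, at 4.29, and the dimmer Hoxb4 probe set and Hoxb6 in the last, at -2.47 and -3.39, have intervals that leave out 0 before adjustment.

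The precision was limited by the number of arrays. For the Hoxb probe sets the 95% interval of a difference between groups of 2 reached 1.39 to 4.18 to either side, and 0.98 to 2.96 between the constructs, before any adjustment. The Hoxb5 difference of 4.29 on withdrawal for 1 h in HOXB4-ER cells, with its own 95% interval of 2.69 to 5.88, did not pass after adjustment.

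Of the remaining members, Hoxb3 alone passed the gauge on any array. Hoxb3, which is known to act with Hoxb4 on the proliferation of mouse stem cells, read 0.46 to 6.93 by its brighter probe set, 1456229_at, above the gauge on 2 arrays, both of HOXB4const cells without TMX. Its 6.93 there, at percentile 78.1, stood 1.61 above the array median. Its dimmer probe set, 1427605_at, read 1.07 to 2.93, above the array median on 0 of 10 arrays. In the RefSeq gene table Hoxb4 lies within the span of Hoxb3 transcripts, and whether a probe set of either gene also hybridises RNA of the other was not tested. Hoxb1, a hindbrain gene, read -0.14 to 5.19 and Hoxb2 0.28 to 5.09, both above the gauge on 0 arrays. Hoxb7, known for its activity in the kidney ducts, read 0.45 to 4.32, and Hoxb9 read 0.53 to 5.42, likewise above the gauge on 0 arrays. Probe set 1452493_s_at, shared by Hoxb8 and Hoxb7, read 1.32 to 3.45, below the array median on all 10 arrays. Hoxb8, whose forced expression immortalises myeloid progenitors, has no level of its own here.

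Sorted by the first base of their RefSeq spans on chromosome 11, the genes run Hoxb9, Hoxb8, Hoxb7, Hoxb6, Hoxb5, Hoxb3, Hoxb4, Hoxb2 and Hoxb1. Hoxb3 stands before Hoxb4 here because the span of its transcripts encloses Hoxb4. This sort does not give the order of that pair of genes. The probe sets that most often passed the array median were the brighter ones of Hoxb4 and Hoxb3, on 10 and 6 arrays, followed by the dimmer Hoxb4 probe set on 4. Hoxb1 and Hoxb9, at opposite ends of the members, each passed it on 3. Of the genes beside the cluster, each by its brightest probe set, 7 of 14 were above the gauge on 10 of 10 arrays. Among them were Cbx1, Snx11 and Nfe2l1. Above it on 0 arrays were 5, with Hoxb13 and Gip, where 45.2% of all probe sets were.

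Arrays that share a replicate number deviated together, and the Hoxb probe sets were examined for the same split. Limma, with the replicate number added to the group means, passed 0 of 10 Hoxb probe sets and 0% of all at an adjusted p under 0.05, and 0 of 10 against 13.7% of all at an unadjusted p under 0.05. The Hoxb median (replicate 2 minus replicate 1) was -0.13, against -0.15 over all probe sets, with 5 of 10 above 0, where 41.3% of all were. Without overlap of the 5 arrays of each number, 0 of 10 were higher and 0 lower, where 2.74% and 3.76% of all were. The brighter Hoxb4 probe set differed by -0.53 ± 0.31 and the dimmer Hoxb3 probe set by -0.63 ± 0.35 (SE). For Gapdh, the 3′ control exceeded the 5′ control by 2.72 ± 1.08 over the arrays of replicate 2 and by 1.10 ± 0.26 over those of replicate 1 (SD, n = 5 each).

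The genes whose profile over the 10 arrays was most like that of the brighter Hoxb4 probe set, among 19226 other probe sets with 1 symbol and a mean at or above the median mean, were Slc5a2, Plbd1, C920006O11Rik, Rnpepl1 and Atxn7l3b. Their Pearson r with it was 0.978, 0.976, 0.970, 0.967 and 0.963. Without the 2 arrays farthest from the Hoxb4 median, r was 0.925, 0.918, 0.941, 0.925 and 0.886. These are the highest of many values over arrays that share depth of signal and replicate number, so they are a description of likeness on these arrays. The mean levels of the 5 genes, in the same order, were 4.62, 4.58, 4.12, 7.71 and 4.52, where the gauge lay between 4.39 and 6.23. All but Rnpepl1 were thus dim, and on how many arrays they passed the gauge was not counted.

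The other Hox clusters, the TALE cofactors, the known activators and repressors and the neighbours of the cluster, 7 lists with 81 measured genes, were set beside the Hoxb genes, each gene by its brightest probe set. At an adjusted p under 0.05, limma passed 0 of the 81 in any of the 7 comparisons, and between 2 (HOXB4const without minus with TMX) and 8 (replicate 2 minus replicate 1) at an unadjusted p under 0.05, where 4.34% and 13.7% of all probe sets passed in those comparisons. The Hoxa cluster had 2 of 9 measured genes above the gauge on 10 of 10 arrays, Hoxa9 and Hoxa5, with Hoxa7 on 9. The Hoxc cluster had 0 of 7 and the Hoxd cluster 0 of 8 there, and all 8 Hoxd genes were above the gauge on 0 arrays. Of 8 TALE cofactors measured, 3 were above it on 10 of 10 arrays, Meis1, Pbx2 and Pbx3. So were 14 of 20 activators of Hox genes, with Kmt2a and Men1, and 11 of 15 Polycomb genes. Among all probe sets, 45.2% were above the gauge on 0 arrays, and 37.6% of all values were above it. The share above it on 10 of 10 arrays was not counted. The lists take each gene's brightest probe set, while these shares and the Hoxb counts take every probe set, so they are unlike measures.

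On withdrawal for 1 h in HOXB4-ER cells the median difference was -0.06 for Hoxa, 0.52 for Hoxc, 0.56 for Hoxd, 0.24 for TALE, -0.01 for activator, 0.13 for Polycomb and 0.11 for neighbouring genes, against 0.12 over all probe sets. The smallest p values in each list belonged to differences with wide errors. Cdx2, a homeobox activator of Hox genes, had 4.07 ± 1.48, Hoxd3 -2.32 ± 0.94, Pknox2 2.55 ± 1.10, Hoxc13 -1.69 ± 1.02, Hoxa3 0.99 ± 0.68, the Polycomb gene Pcgf2 0.71 ± 0.63 and Calcoco2, a neighbour of the cluster, 3.82 ± 1.60 (SE). Cdx2, Hoxd3, Hoxc13 and Calcoco2 were above the gauge on 0 arrays, Pknox2 on 1, Pcgf2 on 5 and Hoxa3 on 6.

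After 4 h the medians were 0.12 for Hoxa, -0.41 for Hoxc, -0.83 for Hoxd, -0.01 for TALE, -0.01 for activator, 0.13 for Polycomb and -0.28 for neighbouring genes, against -0.02 over all probe sets. Hoxc13 had -2.95 ± 1.02, Meis3 -3.18 ± 1.21, Pknox2 2.86 ± 1.10 and Hoxa3 1.16 ± 0.68 (SE). Hoxc13 and Meis3 were above the gauge on 0 arrays, Pknox2 on 1 and Hoxa3 on 6. Mllt3, a partner of KMT2A in leukaemia and a factor of stem cell maintenance, was above the gauge on 9 arrays and had -1.30 ± 0.57 (SE). Usf1 was above it on 1 array and had -0.85 ± 0.42, and Men1, which joins the KMT2A complex, was above it on 10 and had 0.71 ± 0.45 (SE). Both HOXB4-ER withdrawal comparisons use the same arrays with TMX, so their values are not independent of each other.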

How the data were processed

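RNA of 10 samples was amplified linearly and hybridised to Affymetrix arrays, per the labels' protocols. The authors deposited 1 log2 signal for each probe set and array. GCOS and RMA stand in the submitters' processing notes with no role. In the deposited log2 values the trimmed mean of the linear signal was between 99.4 and 99.7 on every array and the quantiles differed, as global scaling leaves them, so they were used without further normalization. No detection calls were used.

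The files hold 45101 probe sets, 64 of them controls, which were not tested. Of the other 45037, 34945 had 1 symbol, 932 several and 9160 were not listed in the annotation used. The fit used limma 3.58.1 (R 4.3.3) and 1 mean for each of 5 groups over 10 arrays (5 residual and 2.21 prior degrees of freedom), two-sided, with Benjamini-Hochberg adjustment over all probe sets and a threshold of 0.05. The fit was also run on simulated independent arrays, with changes planted in probe sets of spread below the median. That run checked mean estimates alone and says nothing about what could be detected for the Hoxb probe sets. The number of arrays limits the precision.

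Named genes were all Hoxb probe sets, the 5 genes most like Hoxb4, and list members past the threshold plus the 3 of smallest p in both withdrawal comparisons, of which some are given. The members and lists were chosen with earlier results of these data known. Differences between replicates 2 and 1 correlated between groups in 10 of 10 pairs (0.210 to 0.527, median 0.314, over 22519 brighter probe sets). Arrays of a number thus deviated together, though the labels do not say what the number stands for. Apart from the replicate comparison, errors, intervals and p-values come from the fit without the replicate number unless an alternative is named. A fit with the replicate block was an alternative. The others were quantile normalization, median centring, the brighter probe sets alone (mean at least the median mean), dim values raised to the 25th percentile, an intensity trend, the compared groups alone, probe sets averaged by gene, and leaving out each array.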

Additional observations from a re-analysis of the deposited data

How the results depend on the processing

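The limits of these results lie in the dim signals and in 2 arrays a group. Limma passed 0 Hoxb probe sets in any of 124 fits of a comparison under a setting. The fits with the replicate block passed 0 probe sets in each comparison that had one, so that the block changed no call. Leaving out 1 array at a time gave 0 to 0 probe sets past the threshold in each of the 7 comparisons. Over all probe sets, the count between the constructs at 1 h was 0 as reported, 1 with dim values raised to the 25th percentile and 6 with an intensity trend. For replicate 2 minus replicate 1 it was 0 as reported, 850 among the brighter probe sets alone, 131 with dim values raised and 2728 with an intensity trend. The cause was not tested. Of 1170 Hoxb differences under alternatives, 89 had the opposite sign to the reported one, and 54 moved by more than the spread within groups. Many of the 1170 could not change. The intensity trend, the replicate block, the brighter probe sets alone and the compared groups alone leave a difference between groups as it is. So does leaving out an array of a group not compared. These counts therefore do not measure how stable the signs are. Averaging the pair of Hoxb4 probe sets turned the Hoxb4 difference at 1 h of HOXB4-ER without minus with TMX to -0.21, from 0.72 for the brighter one.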
